A study of Homo sapiens with 40 samples.

Results

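Cyclins are the regulatory subunits of the cyclin-dependent kinases, and their levels rise and fall as a cell passes through the division cycle. D cyclins act in G1, where they link growth signals to the cycle, E cyclins act at the entry into S phase, cyclin A2 acts through S and G2 phases, and B cyclins drive mitosis. Cyclin A1, the product of CCNA1, is known mainly from the male germ line, where it is needed for meiosis, and from some leukaemias. The mRNAs of 9 cyclins were followed here: CCNA1 (ENSG00000133101_at), CCNA2 (ENSG00000145386_at), CCNB1 (ENSG00000134057_at), CCNB2 (ENSG00000157456_at), CCND1 (ENSG00000110092_at), CCND2 (ENSG00000118971_at), CCND3 (ENSG00000112576_at), CCNE1 (ENSG00000105173_at) and CCNE2 (ENSG00000175305_at). They are 9 of the 22069 features of the expression table, and all 9 are present in it. CCNA1 was chosen by its known rise under CASP8AP2 siRNA on days 2 and 3, so those values are given as a description with no test. The other 8 are its A, B, D and E type relatives, and counts of cyclins that changed are over these 8.

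The study followed up a screen for genes that normal and tumor cells need for S phase. U2OS cells come from an osteosarcoma. hTERT-RPE1 cells stand for normal tissue, being retinal pigment epithelium kept dividing by telomerase. Each line received a pool of small interfering RNAs (siRNAs) against CASP8AP2, NPAT or HINFP, which are regulators of histone gene transcription, or a negative control siRNA (AllStars Negative), so that every group, the controls included, went through transfection. On days 1 and 2 each line had 3 arrays of control siRNA and 3 of CASP8AP2 siRNA per day. On day 3 each line had 2 arrays of each of the 4 siRNAs, which makes 16 groups and 40 arrays. Each line is a single culture lineage. Transfections of the day 3 pairs were done together, so the p-values of that day measure the spread between simultaneous cultures only.

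The values are deposited log2 levels from Affymetrix Human WT arrays, in which a difference of 1 is a doubling. Days 1 and 2 (array means 6.00 to 6.05) and day 3 (5.85 to 5.88) were treated as separate sets and are never tested against each other. Arrays of a group correlated at r = 0.996 to 0.998 in the first set and 0.995 to 0.997 in the second, and no arrays were identical. The target mRNAs were lower under their own siRNAs in every comparison: CASP8AP2 was at 0.555 to 0.591 of control in hTERT-RPE1 cells and at 0.301 to 0.443 in U2OS cells, NPAT fell by 1.31 and 1.59 on the log2 scale in hTERT-RPE1 and U2OS cells, and HINFP fell by 1.05 and 1.64 (largest adjusted p = 0.00263). Of the pigment epithelium markers with a feature that could be named, BEST1 and RLBP1, control means lay at 3.55 to 4.28 in both lines, near the bottom of the scale. Of the osteoblast markers, RUNX2 was higher in hTERT-RPE1 cells (9.57 to 9.67) than in U2OS cells (7.34 to 7.87), and COL1A2 (4.00 to 4.49) and IBSP (3.47 to 4.21) were low in both, so these markers do not separate the lines by their tissue of origin.

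CCNA1 was low in all control cells. In hTERT-RPE1 cells the control arrays read 3.90, 3.80 and 3.87 on day 1, 4.23, 3.78 and 4.14 on day 2, and 4.24 and 3.97 on day 3. In U2OS cells they read 4.04, 3.89 and 3.60 on day 1, 3.83, 4.11 and 3.88 on day 2, and 4.28 and 4.00 on day 3. These levels lie between the 25.6 and 35.0 percentile of all features of the same arrays. Control U2OS and hTERT-RPE1 cells differed by -0.01 (95% interval -0.31 to 0.29), -0.11 (-0.41 to 0.19) and 0.04 (-0.37 to 0.44) on the 3 days, and none of these passed the test.

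On day 1 after CASP8AP2 siRNA transfection CCNA1 stayed at the control level. The treated arrays read 3.76, 3.84 and 3.59 in hTERT-RPE1 cells and 3.85, 3.82 and 3.82 in U2OS cells, inside or just below the range of their controls. The differences from control were -0.13 (SE 0.14, adjusted p = 0.873) and -0.01 (SE 0.14, adjusted p = 0.985) on the log2 scale.

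On day 2 the treated arrays stood clear of every control array. They read 6.05, 6.18 and 6.46 in hTERT-RPE1 cells, a difference of 2.18 (SE 0.14) or 4.53-fold, and 6.37, 5.76 and 6.08 in U2OS cells, a difference of 2.13 (SE 0.14) or 4.38-fold. CCNA1 was then at the 56.1 and 53.9 percentile of all features. Its rise had rank 18 among all 22069 features in hTERT-RPE1 cells and rank 23 in U2OS cells. On day 3 the levels were 7.64 and 7.55 in hTERT-RPE1 cells, a difference of 3.49 (SE 0.19) or 11.3-fold, and 6.94 and 7.39 in U2OS cells, a difference of 3.02 (SE 0.19) or 8.13-fold. The ranks were then 6 and 11, and the percentiles 71.8 and 67.8. Between the lines (U2OS less hTERT-RPE1) the size of the effect differed by -0.05 on day 2 and -0.47 on day 3, values that are given with no test because they rest on the comparisons that chose the gene. On day 1 this difference was 0.12 (adjusted p = 0.90).

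NPAT and HINFP siRNA, which the choice of CCNA1 did not use, raised it in U2OS cells on day 3. They share their control arrays with the CASP8AP2 comparison of that day. In U2OS cells CCNA1 read 5.33 and 4.95 under NPAT siRNA and 4.96 and 5.16 under HINFP siRNA, against 4.28 and 4.00 in the controls. The rises were 1.00 (SE 0.19, adjusted p = 0.0069, 2.00-fold) and 0.92 (SE 0.19, adjusted p = 0.00795, 1.89-fold), which lie at rank 91 and rank 157 of all rises. In hTERT-RPE1 cells the levels were 4.51 and 4.45 under NPAT siRNA and 3.68 and 4.16 under HINFP siRNA, against 4.24 and 3.97 in the controls. The differences of 0.37 (adjusted p = 0.30) and -0.18 (adjusted p = 0.661) did not pass the test.

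These U2OS calls rest on 2 arrays a group. The NPAT rise was 0.85 (adjusted p = 0.063) without control replicate 2 and 0.81 (adjusted p = 0.0642) without NPAT replicate 1, and the HINFP rise was 0.78 (adjusted p = 0.0759) without control replicate 2 and 0.82 (adjusted p = 0.0827) without HINFP replicate 2. The HINFP effect on CCNA1 differed between the lines by 1.10 (adjusted p = 0.0436), higher in U2OS cells, where HINFP itself was also lowered further. That call was lost on leaving out any of 7 of the 8 arrays in turn, hTERT-RPE1 HINFP replicate 2 being the exception, with values of 0.86 to 1.24. It was also lost with only these arrays in the fit (adjusted p = 0.0796), after centring each array on its median (1.05, adjusted p = 0.0533) and after cyclic loess (1.01, adjusted p = 0.0604). The NPAT effect differed by 0.62 (adjusted p = 0.216). NPAT and HINFP siRNA differed from each other by 0.08 in U2OS cells (95% interval -0.33 to 0.48, adjusted p = 0.915) and by 0.56 in hTERT-RPE1 cells (adjusted p = 0.138). Beside CASP8AP2 siRNA on the same day, CCNA1 was 3.12 lower under NPAT siRNA and 3.68 lower under HINFP siRNA in hTERT-RPE1 cells, and 2.03 and 2.10 lower in U2OS cells, described with no test.

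**Figure D1:**
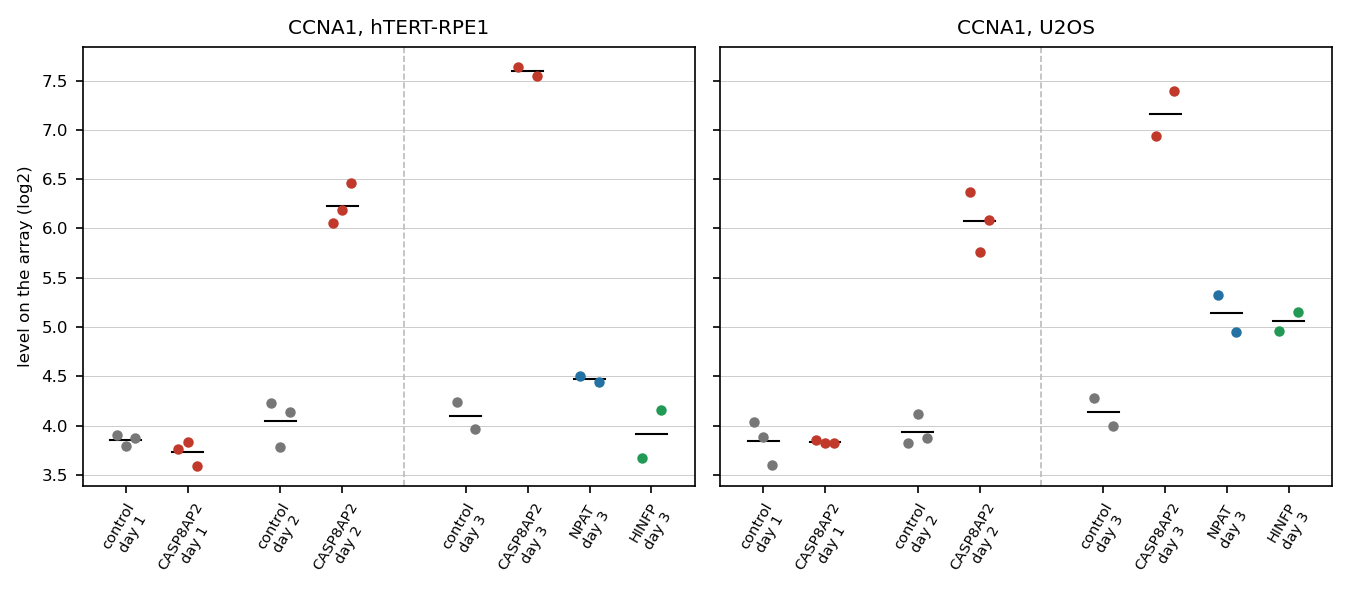
CCNA1 level (log2) in each of the 40 arrays by cell line, day and siRNA, each point 1 array and each bar a group mean, with the 2 sets of arrays drawn apart. All control and day 1 arrays sit between 3.59 and 4.28, the CASP8AP2 siRNA arrays at 5.76 to 6.46 on day 2 and 6.94 to 7.64 on day 3, and the U2OS arrays of NPAT and HINFP siRNA between 4.95 and 5.33.

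The features whose pattern was most like that of CCNA1 were sought among the 1924 features whose symbol is known here, as the Pearson r across arrays with each cell line mean taken off. SLC7A8, an amino acid transporter, had r = 0.912 over the 24 arrays of days 1 and 2 and 0.914 over the 16 arrays of day 3, which is rank 4 of all features, unnamed ones included. PRSS8, a membrane serine protease, had 0.895 and 0.854, and SLC12A8, of the cation chloride cotransporter family, had 0.894 and 0.832. The arrays share their treatments, so these are descriptions of a likeness and carry no p. Without taking the line means off, the mean r of SLC7A8 was 0.455, while PRSS8 stayed at 0.808 and SLC12A8 at 0.836.

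CCNA2, CCNB1 and CCNB2 moved opposite to CCNA1 in U2OS cells: all 3 were lower under CASP8AP2 siRNA on day 2. Genes of this kind are known to be repressed in G1 and switched on towards mitosis through promoter elements called CHR and CCAAT box. Their promoters are shown for these elements. CCNE1 and CCNE2, described further on, fell on that day too. The windows are the 250 bases before the RefSeq start site in GRCh38.p14, chr4:121823884-121824133 (minus strand) for CCNA2, chr5:69166900-69167149 (plus strand) for CCNB1 and chr15:59104896-59105145 (plus strand) for CCNB2. Capitals mark a CCAAT box (CCAAT, or ATTGG on the other strand) or a CHR (TTTGAA or TTCGAA).
CCNA2: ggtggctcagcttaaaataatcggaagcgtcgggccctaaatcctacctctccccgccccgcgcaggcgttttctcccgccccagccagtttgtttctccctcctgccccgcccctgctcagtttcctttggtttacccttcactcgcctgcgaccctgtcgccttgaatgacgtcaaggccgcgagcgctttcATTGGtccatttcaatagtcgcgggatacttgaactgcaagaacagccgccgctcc
CCNB1: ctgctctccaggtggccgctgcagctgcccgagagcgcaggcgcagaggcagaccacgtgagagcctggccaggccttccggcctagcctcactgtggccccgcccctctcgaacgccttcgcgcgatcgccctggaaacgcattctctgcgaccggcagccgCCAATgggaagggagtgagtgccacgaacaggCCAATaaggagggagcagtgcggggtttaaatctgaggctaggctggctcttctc
CCNB2: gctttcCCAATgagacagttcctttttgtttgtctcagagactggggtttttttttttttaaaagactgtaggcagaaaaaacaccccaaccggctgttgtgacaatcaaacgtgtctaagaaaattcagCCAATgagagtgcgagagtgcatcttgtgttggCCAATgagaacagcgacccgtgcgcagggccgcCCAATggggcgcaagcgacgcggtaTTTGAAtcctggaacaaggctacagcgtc
Each of the 3 held a CCAAT box that starts 54 to 56 bases before the start site. CCNB1 held 2 boxes and CCNB2 held 4, with 1 CHR of the searched letters at 29 bases. Only TTTGAA and TTCGAA were searched as a CHR, so one of other letters would not be marked in any window. Among 35116 promoter windows of this length 32.0% held a CCAAT box and 14.3% a CHR. An E2F site (TTTCCCGC, TTTCGCGC, TTTGCCGC or TTTGGCGC) was found in none of these 3, nor in the windows of CCNA1, CCND3 and CCNE1. Of all windows 2.79% had such a site. Only these letters were searched, so an E2F site of other letters or outside the windows would not be found. CCNA1 and CCNE1, each searched at 1 start site, held neither of the other motifs. CCND3, which rose on that day, was searched at 3 start sites and held no CHR. Its windows held a CCAAT box 64 bases before 1 start site and 136 bases before another, and none at the last. A match is a run of letters and not evidence of binding.

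In U2OS cells on day 2 CCNA2 read 10.01, 9.94 and 10.09 under CASP8AP2 siRNA against 10.52, 10.54 and 10.51 in control cells. CCNA2 was lower by 1.43-fold (log2 difference -0.51, SE 0.07, adjusted p = 6.44e-06). CCNB1, the regulatory subunit of the mitosis-promoting kinase, read 10.22, 10.21 and 10.30 against 10.59, 10.57 and 10.60. CCNB2, its close relative, read 10.10, 10.12 and 10.15 against 10.46, 10.43 and 10.44. The log2 differences were -0.34 (SE 0.05, adjusted p = 1.5e-05) and -0.32 (SE 0.05, adjusted p = 9.16e-05). All 3 calls held under every alternative that was run. In bulk RNA, a shift in the share of cells in each phase and less cyclin mRNA per cell cannot be told apart. The paper reports more tumor cells in S phase after CASP8AP2 loss, through slowed DNA replication. For hTERT-RPE1 cells it reports an arrest in early S phase, so the same limit of bulk RNA holds for that line.

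The B cyclins were already lower on day 1 in U2OS cells. CCNB1 read 10.07, 10.09 and 10.10 against 10.46, 10.39 and 10.32, a difference of -0.30 (adjusted p = 0.000394), and CCNB2 read 9.74, 9.74 and 9.86 against 10.14, 10.00 and 10.06, a difference of -0.29 (adjusted p = 0.00126). With only these 6 arrays in the fit the adjusted p was 0.0508 for CCNB1 and 0.0756 for CCNB2. CCNA2 read 10.18, 10.28 and 10.27 against 10.42, 10.35 and 10.32, and its difference of -0.12 did not pass (adjusted p = 0.389). The CCNA2 effect in U2OS cells was larger on day 2 than on day 1, by -0.39 (SE 0.10, adjusted p = 0.0152). On day 3 CCNA2 read 9.58 and 9.85 against 10.22 and 10.20 (-0.50, SE 0.12, adjusted p = 0.00997), and CCNB2 read 10.15 and 10.26 against 10.68 and 10.62 (-0.45, SE 0.10, adjusted p = 0.00659). Both calls were lost without CASP8AP2 replicate 1, where the differences were -0.37 and -0.39, and without control replicate 1, where they were -0.49 and -0.42. CCNB1 read 10.35 and 10.50 against 10.64 and 10.57 and did not pass (-0.18, adjusted p = 0.204).

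In hTERT-RPE1 cells the falls of both B cyclins passed the test on day 2. CCNB1 read 9.64, 9.62 and 9.55 against 9.85, 9.90 and 9.84, a difference of -0.26 (SE 0.05, adjusted p = 0.00184), and CCNB2 read 10.03, 10.07 and 10.13 against 10.43, 10.35 and 10.29, a difference of -0.28 (SE 0.05, adjusted p = 0.00162). With only these 6 arrays the adjusted p was 0.122 and 0.118. CCNA2 read 10.39, 10.48 and 10.40 against 10.78, 10.52 and 10.54 and did not pass (-0.19, adjusted p = 0.122). On day 3 the CCNA2 arrays read 9.91 and 9.79 under CASP8AP2 siRNA, 10.19 and 10.00 under NPAT siRNA and 9.58 and 9.81 under HINFP siRNA, against controls at 9.70 and 9.92. CCNA2 passed under none of the 3 siRNAs, and neither did the B cyclins. In U2OS cells NPAT and HINFP siRNA gave CCNA2 levels of 9.81 to 9.92, below the controls, with differences of -0.37 (adjusted p = 0.0758) and -0.35 (adjusted p = 0.0876) that did not pass. CCNB2 under HINFP siRNA, at 10.38 and 10.28, was -0.32 from its controls (adjusted p = 0.0593).

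The E cyclins activate CDK2 at the start of S phase, and CCNE2 had the largest fall of the 8 that passed in U2OS cells. On day 1 CCNE2 read 8.26, 8.41 and 8.32 under CASP8AP2 siRNA against 8.77, 8.74 and 8.75 in control cells (-0.42, SE 0.06, adjusted p = 3.88e-05). On day 2 it read 7.96, 7.82 and 7.94 against 8.52, 8.51 and 8.49, lower by 1.51-fold (-0.60, SE 0.06, adjusted p = 5.07e-08). Both calls held under every alternative. On day 3 the treated arrays were at 7.37 and 7.85 and the controls at 8.04 and 7.98. The treated pair was widely spread, and the difference of -0.40 did not pass (adjusted p = 0.104). In hTERT-RPE1 cells CCNE2 on day 1 read 9.48, 9.40 and 9.46 against 9.51, 9.45 and 9.46, and on day 2 9.18, 9.22 and 9.14 against 9.37, 9.37 and 9.20, and neither passed. Under NPAT siRNA it read 8.98 and 8.88 in hTERT-RPE1 cells against 8.64 and 8.37 in the controls (0.43, adjusted p = 0.149), and under HINFP siRNA 8.02 and 8.37.

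CCNE1 was the cyclin that fell in hTERT-RPE1 cells on both later days. On day 2 it read 7.12, 7.01 and 6.96 under CASP8AP2 siRNA against 7.36, 7.33 and 7.53, lower by 1.29-fold (-0.37, SE 0.06, adjusted p = 0.000384), a call lost with only these 6 arrays (adjusted p = 0.0676). On day 3 it read 6.38 and 6.53 under CASP8AP2 siRNA and 6.33 and 6.63 under HINFP siRNA against 7.13 and 6.81 in the controls. The differences were -0.52 (SE 0.12, adjusted p = 0.0277) and -0.49 (SE 0.12, adjusted p = 0.0457). Control replicate 1 is the highest of these arrays, and without it the differences were -0.36 and -0.33 and neither passed. The CASP8AP2 call was also lost without CASP8AP2 replicate 1 (-0.44) or replicate 2 (-0.59), and the HINFP call without HINFP replicate 1 (-0.34). Under NPAT siRNA CCNE1 read 6.79 and 6.67. In U2OS cells CCNE1 on day 1 read 10.20, 10.16 and 10.16 against 10.14, 10.09 and 10.09, a difference of 0.07 that did not pass (adjusted p = 0.634). On day 2 it fell, to 9.95, 9.93 and 9.95 against 10.18, 10.22 and 10.13 (-0.23, adjusted p = 0.00676), and on day 3 it read 9.69 and 9.87 against 9.77 and 9.72. The day 2 call was lost after cyclic loess scaling of the arrays, with a difference of -0.16.

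CCND3, a G1 cyclin, was the only one of the 8 that passed the test upward under CASP8AP2 siRNA. On day 2 it read 10.35, 10.34 and 10.41 against 10.17, 9.96 and 9.94 in hTERT-RPE1 cells (0.35, SE 0.07, adjusted p = 0.00348, 1.27-fold) and 10.74, 10.70 and 10.74 against 10.44, 10.48 and 10.40 in U2OS cells (0.28, SE 0.07, adjusted p = 0.00471, 1.22-fold). The U2OS call held under every alternative and the hTERT-RPE1 call had an adjusted p of 0.0899 with only its 6 arrays. On day 3 CCND3 in U2OS cells read 9.52 and 9.41 in the controls, 9.75 and 9.80 under CASP8AP2 siRNA, 9.99 and 9.85 under NPAT siRNA and 9.81 and 9.86 under HINFP siRNA. All 6 treated arrays were above both controls, but the 3 siRNAs share these controls, so they are not 3 separate results. How many of all features separate in this way was not counted. Only the NPAT difference passed (0.46, SE 0.11, adjusted p = 0.0228), and it was lost on leaving out any of its 4 arrays in turn, control replicates 1 and 2 and NPAT replicates 1 and 2 (0.39 to 0.53). The others were 0.31 (adjusted p = 0.0624) and 0.37 (adjusted p = 0.0521).

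CCND1, the D cyclin most often linked to growth factor signals, moved little with any siRNA. Its only call was under HINFP siRNA in U2OS cells, at 10.28 and 10.23 against 9.87 and 9.98 in the controls (0.33, SE 0.09, adjusted p = 0.0303), and it was lost on leaving out any of these 4 arrays, control replicates 1 and 2 and HINFP replicates 1 and 2 (0.28 to 0.39). CCND2 did not pass under any siRNA. Its hTERT-RPE1 arrays ranged from 3.83 to 4.63 and its U2OS arrays from 10.98 to 11.61 over all siRNAs and days. In U2OS cells on day 1 CCND2 read 11.44, 11.47 and 11.43 under CASP8AP2 siRNA against 11.17, 11.28 and 11.18. This difference of 0.23 did not pass. The fit takes 1 spread per gene over both lines, so the scatter of the hTERT-RPE1 arrays enters that test.

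**Figure D2:**
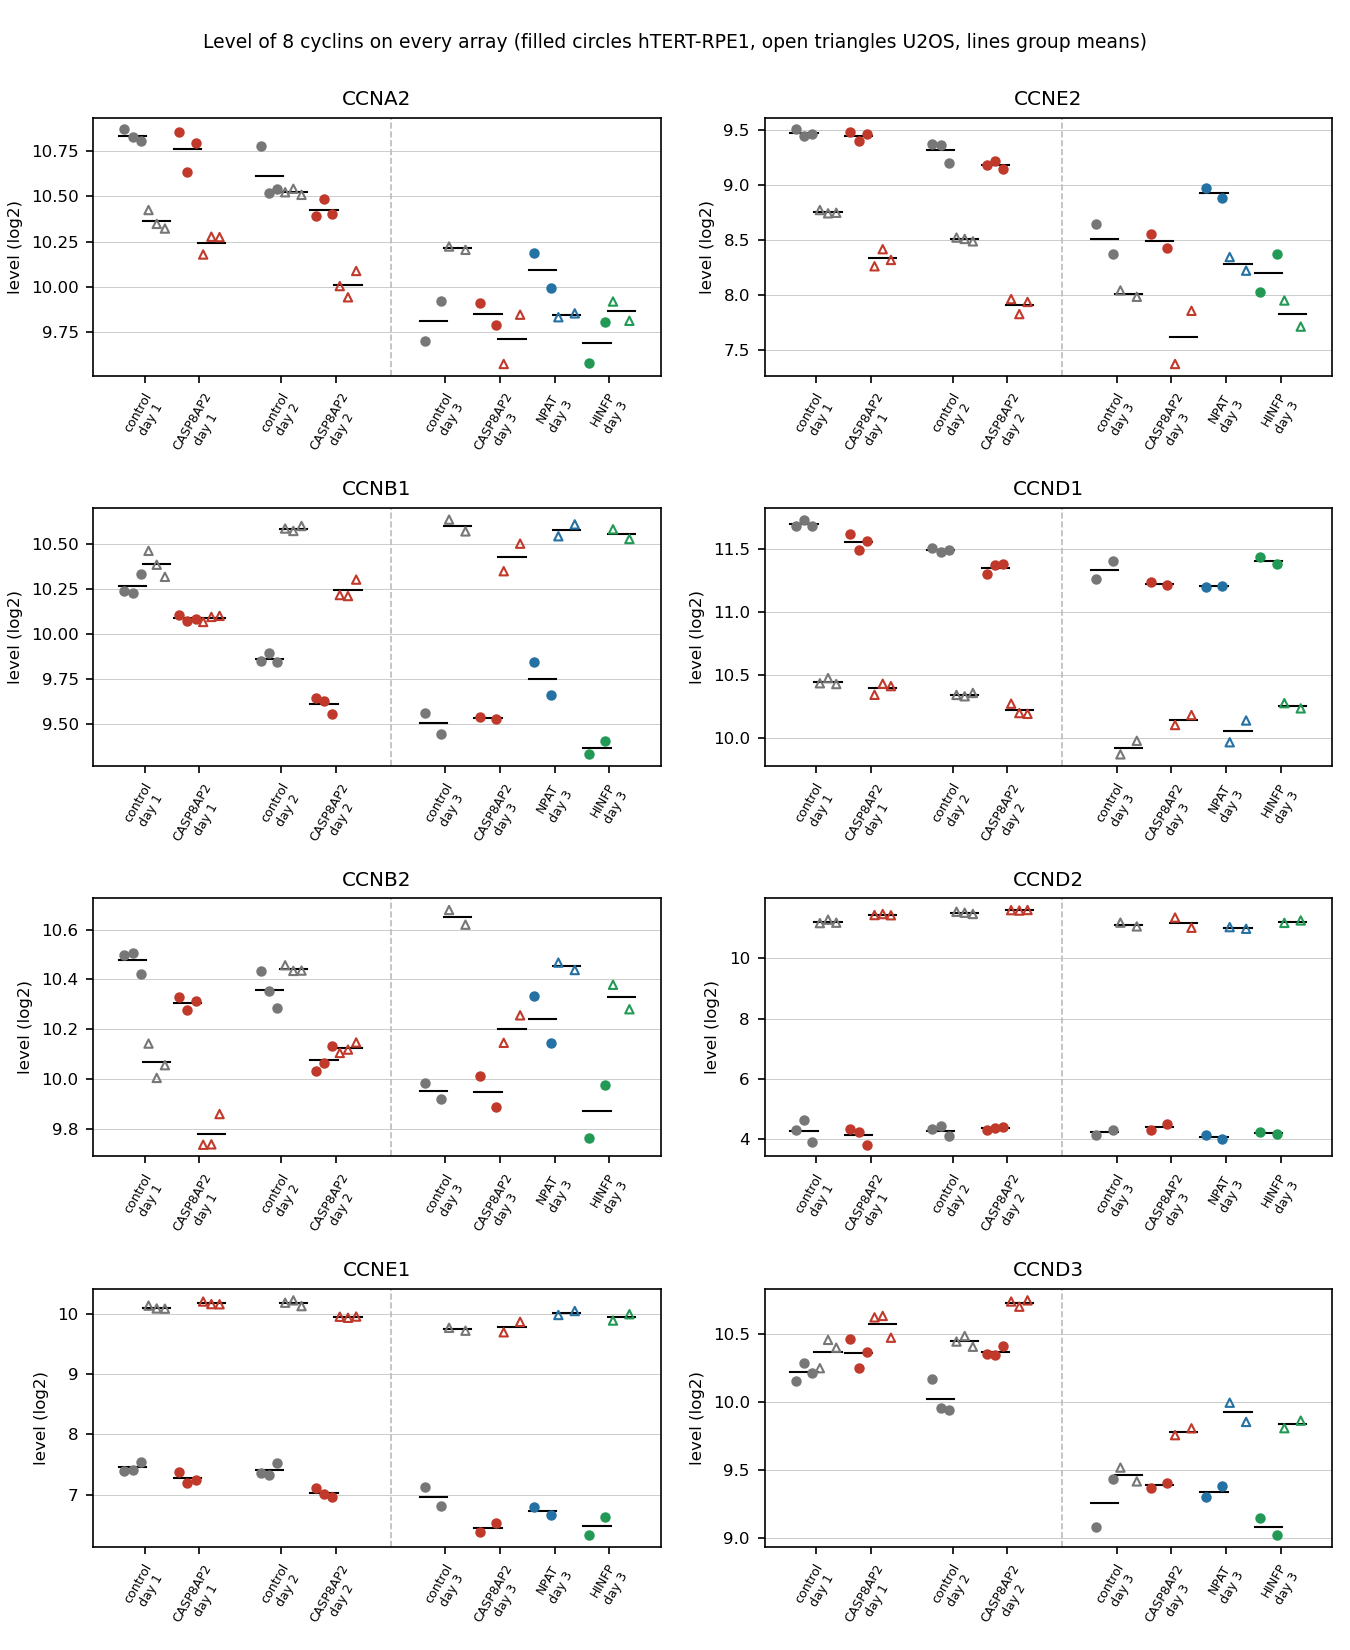
Level (log2) of the other 8 cyclins in every array, 1 panel a gene, by day and siRNA, with filled circles for hTERT-RPE1 arrays, open triangles for U2OS arrays and bars for group means. CCNA2, CCNB1, CCNB2 and CCNE2 under CASP8AP2 siRNA lie below their U2OS controls on day 2, CCND3 lies above, and CCND2 is at 3.83 to 4.63 in hTERT-RPE1 cells and at 10.98 to 11.61 in U2OS cells.

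The counts of the 8 cyclins called follow by comparison. Days 1 and 2 have 3 arrays a group and day 3 has 2, so counts of day 3 and of the earlier days are not of equal power, and with all 40 arrays in 1 fit CASP8AP2 siRNA in U2OS cells had 6 on day 2 and 6 on day 3. A value was called at an adjusted p under 0.05, and the share of all 22069 features called stands beside each count. In hTERT-RPE1 cells CASP8AP2 siRNA changed 0 of 8 on day 1 in the limma fit, where 0.793% of all features were called, 4 at an unadjusted p under 0.05 and 1 under the trended and robust variance model. It changed 4 of 8 on day 2 (6.4% of all features), with CCNB1, CCNB2 and CCNE1 lower and CCND3 higher, and CCNE1 on day 3 (6.15%). In U2OS cells it changed 3 of 8 on day 1 (5.87%), all lower, 6 of 8 on day 2 (24.9%), with CCNA2, CCNB1, CCNB2, CCNE1 and CCNE2 lower and CCND3 higher, and 2 of 8 on day 3 (18.9%), both lower. NPAT siRNA changed 0 of 8 in hTERT-RPE1 cells in the limma fit (5.04%), 4 at an unadjusted p under 0.05 and 0 under the trended and robust model, and 1 of 8 in U2OS cells (8.13%). HINFP siRNA changed 1 of 8 in each line (4.15% and 9.43%). The counts for NPAT and HINFP siRNA, and those for CASP8AP2 siRNA on day 3, are near their backgrounds, as 1 gene in 8 is 12.5% and 2 in 8 are 25%.

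**Figure D3:**
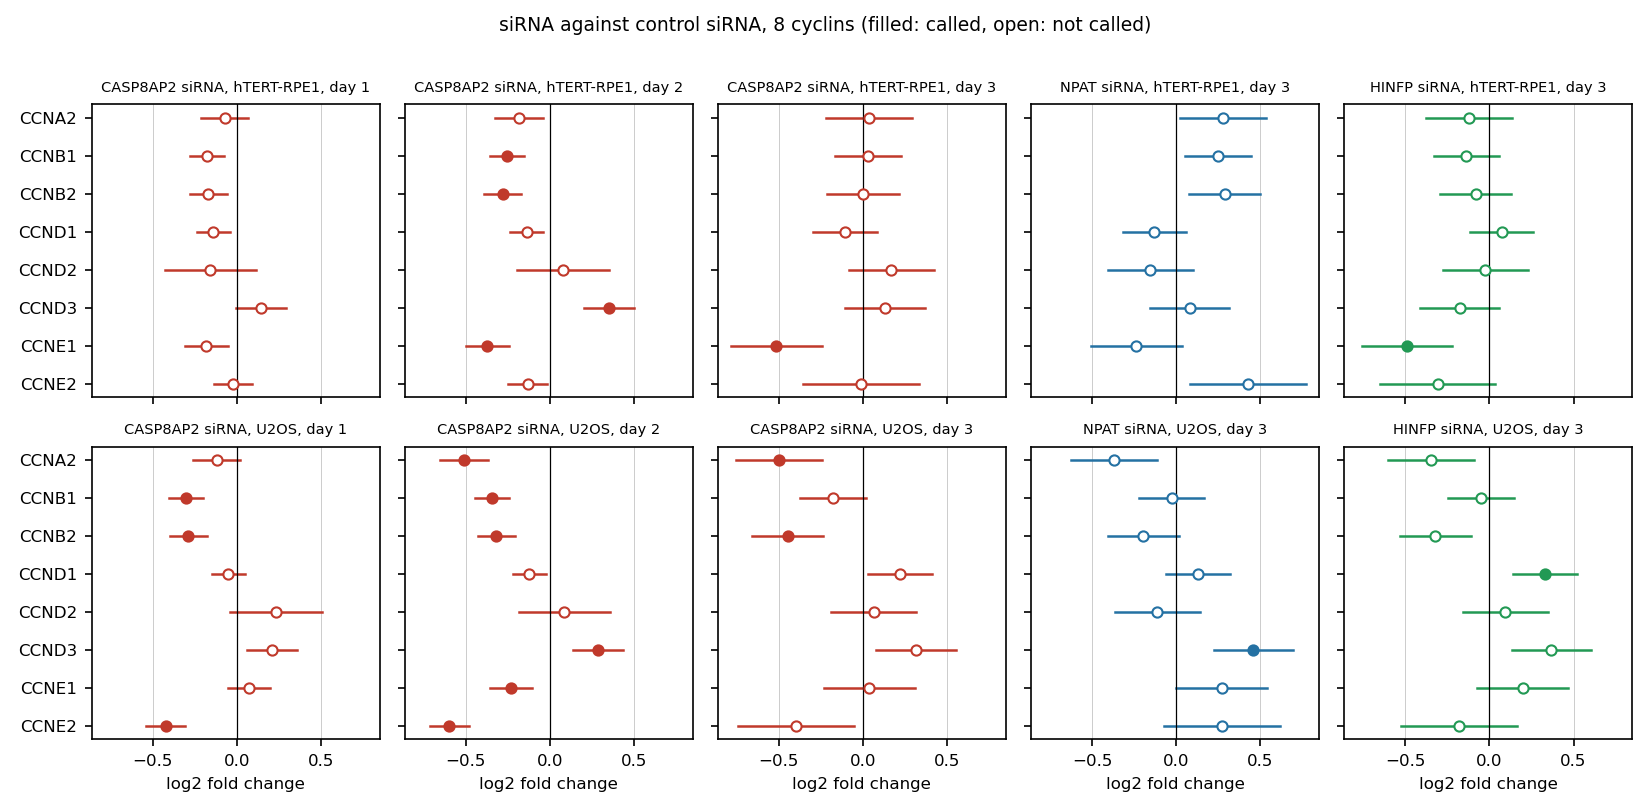
Log2 difference from control siRNA of the 8 cyclins other than CCNA1 in the 10 siRNA comparisons, points with 95% intervals, filled where the adjusted p was under 0.05 and open otherwise. All points lie between -0.60 and 0.46, and the U2OS panel of CASP8AP2 siRNA on day 2 has the most filled points, 6 of 8.

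The difference of the effects between the cell lines was tested directly. As given above, the siRNAs lowered their targets further in U2OS than in hTERT-RPE1 cells. Line and depth of knockdown therefore cannot be told apart in these tests. On day 1 the CASP8AP2 effect on CCNE2 was more negative in U2OS cells by -0.40 (SE 0.08, adjusted p = 0.0161), 1 call of 8 where 0.689% of all features were called. It was lost without hTERT-RPE1 CASP8AP2 replicate 3 (-0.39) or U2OS CASP8AP2 replicate 1 (-0.36). On day 2 CCNE2 differed by -0.46 (SE 0.08, adjusted p = 0.000463), which held under every alternative, and CCNA2 by -0.33 (SE 0.10, adjusted p = 0.0347), 2 of 8 against 9.39% of all features. The CCNA2 difference was lost on leaving out any of 9 of the 12 arrays, the exceptions being hTERT-RPE1 control replicate 1, hTERT-RPE1 CASP8AP2 replicate 1 and U2OS CASP8AP2 replicate 3, with values of -0.28 to -0.34. The B cyclins differed by -0.09 (95% interval -0.23 to 0.06) for CCNB1 and -0.04 (-0.19 to 0.12) for CCNB2, and did not pass.

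On day 3 the limma fit called 0 of 8 for the line difference under CASP8AP2 siRNA (9.55% of all features), 4 at an unadjusted p under 0.05 and 3 under the trended and robust model. Those nearest the threshold were CCNA2 at -0.54 and CCNB2 at -0.45 (adjusted p = 0.0604 for both), and CCNE1 at 0.55 (adjusted p = 0.067). For NPAT siRNA it called 0 of 8 (3.46%), 5 unadjusted and 2 under the other model, with CCNA2 at -0.65 (adjusted p = 0.0526). For HINFP siRNA it called 0 of 8 (3.15%), 2 unadjusted and 2 under the other model, with CCNE1 at 0.69 (adjusted p = 0.0542). Between days 1 and 2 the CASP8AP2 effect changed for 0 of 8 cyclins in hTERT-RPE1 cells (0.652%), 1 unadjusted and 0 under the other model. In U2OS cells it changed for 2 of 8 (7.04%), CCNA2 as above and CCNE1 by -0.30 (SE 0.09, adjusted p = 0.0362). The CCNE1 change was lost on leaving out any of 10 of its 12 arrays, the exceptions being control replicate 1 of day 1 and control replicate 3 of day 2, with values of -0.28 to -0.31.

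The siRNAs were also set against each other on day 3, where no control array enters. In hTERT-RPE1 cells NPAT siRNA left 2 of 8 cyclins higher than HINFP siRNA (3.63% of all features), CCNE2 by 0.73 (SE 0.16, adjusted p = 0.0228) and CCNB1 by 0.39 (SE 0.09, adjusted p = 0.0325). CCNE2 was lost without NPAT replicate 1 (0.69), NPAT replicate 2 (0.78) or HINFP replicate 1 (0.56), and CCNB1 without any of the 4 arrays, NPAT replicates 1 and 2 and HINFP replicates 1 and 2 (0.30 to 0.47). In U2OS cells CCNE2 was lower under CASP8AP2 than under NPAT siRNA, at 7.37 and 7.85 against 8.34 and 8.22, by -0.67 (SE 0.16, adjusted p = 0.0373), 1 of 8 against 3.5%. That call was lost without CASP8AP2 replicate 1 (-0.43), NPAT replicate 1 (-0.61) or NPAT replicate 2 (-0.73). The limma fit called 0 of 8 in the other 4 pairs. These were CASP8AP2 against NPAT siRNA in hTERT-RPE1 cells (2.38%, 5 unadjusted), CASP8AP2 against HINFP siRNA in hTERT-RPE1 cells (3.81%, 1 unadjusted) and in U2OS cells (5.6%, 0 unadjusted), and NPAT against HINFP siRNA in U2OS cells (4.04%, 2 unadjusted), with 0 in each under the trended and robust model.

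CCND2 and CCNE1 differed more between the control lines than any of the 8 cyclins did between siRNA and control. CCND2 control arrays read 4.33, 4.63 and 3.92 in hTERT-RPE1 cells on day 1 and 11.17, 11.28 and 11.18 in U2OS cells. U2OS cells were higher by 6.92, 7.22 and 6.88 on the 3 days, or 121-fold, 149-fold and 118-fold, which has rank 2, 1 and 2 of all features. In hTERT-RPE1 cells CCND2 lay at the 31.4 to 39.8 percentile of all features, and since the table has no detection calls, whether the mRNA was measured there above background is not known and the fold is that of the array. CCNE1 was higher in U2OS cells by 2.65, 2.77 and 2.77, or 6.28-fold to 6.84-fold. CCND1 was lower in U2OS cells by 2.38-fold, 2.22-fold and 2.65-fold, and CCNE2 by 0.72, 0.81 and 0.49 on the log2 scale. The CCNE2 difference of day 3 was lost without hTERT-RPE1 control replicate 1 (-0.36), U2OS control replicate 1 (-0.52) or U2OS control replicate 2 (-0.46).

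The A2 and B cyclins did not hold one order between the control lines. CCNB1 was higher in U2OS cells by 0.12 (adjusted p = 0.0424), 0.72 and 1.10 on days 1, 2 and 3. The day 1 value was -0.0013 on centring each array on its median, and its call was lost without hTERT-RPE1 control replicate 1 (0.11) or 2 (0.10) or U2OS control replicate 1 (0.09) or 2 (0.12). CCNB2 was -0.41 on day 1, 0.09 on day 2 (adjusted p = 0.194) and 0.70 on day 3. CCNA2 was lower by -0.47 on day 1, its day 2 difference of -0.09 did not pass (adjusted p = 0.304), and on day 3 it was higher by 0.40 (adjusted p = 0.0137), a call lost without hTERT-RPE1 control replicate 1 (0.29) or U2OS control replicate 1 (0.39) or 2 (0.41). CCND3 was higher in U2OS cells by 0.42 on day 2, and by 0.15 (adjusted p = 0.0886) and 0.21 (adjusted p = 0.147) on days 1 and 3. In all, 7, 6 and 7 of the 8 cyclins differed on days 1, 2 and 3, where 48.7%, 50.8% and 43.8% of all features did. The median difference of all features was -0.00126, -0.0264 and -0.0430 on the 3 days, and median centring shifted it to -0.125, -0.182 and -0.105, by over 0.1 for days 1 and 2.

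**Figure D4:**
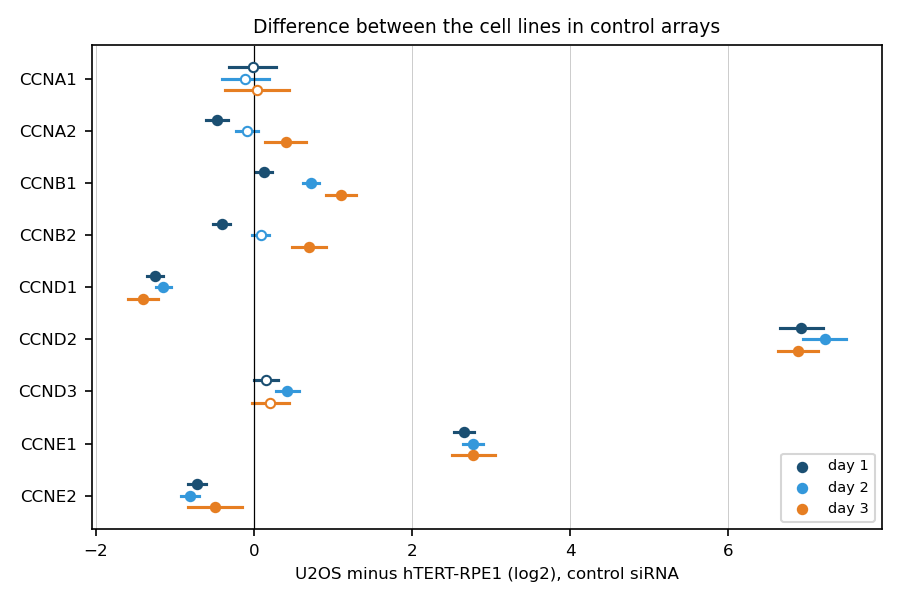
Log2 difference of U2OS from hTERT-RPE1 control cells for each cyclin on days 1, 2 and 3, points with 95% intervals, filled where called. CCND2 lies at 6.88 to 7.22 and CCNE1 at 2.65 to 2.77, CCND1 at -1.15 to -1.41, and CCNA2 and CCNB2 pass from below 0 on day 1 to above 0 on day 3.

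The control cells also differed between days 1 and 2, and CCNB1 passed in both lines with opposite directions. In hTERT-RPE1 cells 3 of 8 cyclins were lower on day 2 (10% of all features called), CCNB1 by 0.40 on the log2 scale (9.85, 9.90 and 9.84 against 10.24, 10.23 and 10.33, adjusted p = 1.07e-05), CCNA2 (-0.22, adjusted p = 0.04) and CCND1 (-0.21, adjusted p = 0.00536). The CCNA2 call was lost without any day 1 control replicate (replicates 1, 2 and 3) or without day 2 replicate 2 or 3 (-0.18 to -0.24). In U2OS cells 3 of 8 changed (13%), CCNB2 by 0.37 (10.46, 10.43 and 10.44 against 10.14, 10.00 and 10.06, adjusted p = 4.5e-05), CCNB1 by 0.20 (adjusted p = 0.00813) and CCNE2 by -0.25 (adjusted p = 0.00409). The CCNB1 rise was lost without day 1 control replicate 3 (0.16). These control arrays also enter the siRNA comparisons of their day.

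Across arrays, with the line means taken off, the mitotic cyclins followed each other. CCNA2 and CCNB1 had r = 0.796 over the 24 arrays of days 1 and 2 and 0.763 over the 16 arrays of day 3. CCNB1 and CCNB2 had 0.823 and 0.846, CCNA2 and CCNB2 0.610 and 0.911, and CCNA2 and CCNE2 0.796 and 0.634. CCNA1 ran against CCNA2 on days 1 and 2 (-0.772) and less so on day 3 (-0.294), and the same held for CCNA1 and CCNE1 (-0.797 and -0.314). CCNA2 and CCND1 had opposite signs in the 2 sets, 0.757 and -0.548. The features with symbols closest to CCNA2 were KIF11, the spindle motor (0.906 and 0.908), C12orf48 (0.910 and 0.872) and RFC4, a subunit of the clamp loader of DNA replication (0.914 and 0.864). The arrays share treatments and days, so these values describe and are not tested.

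**Figure D5:**
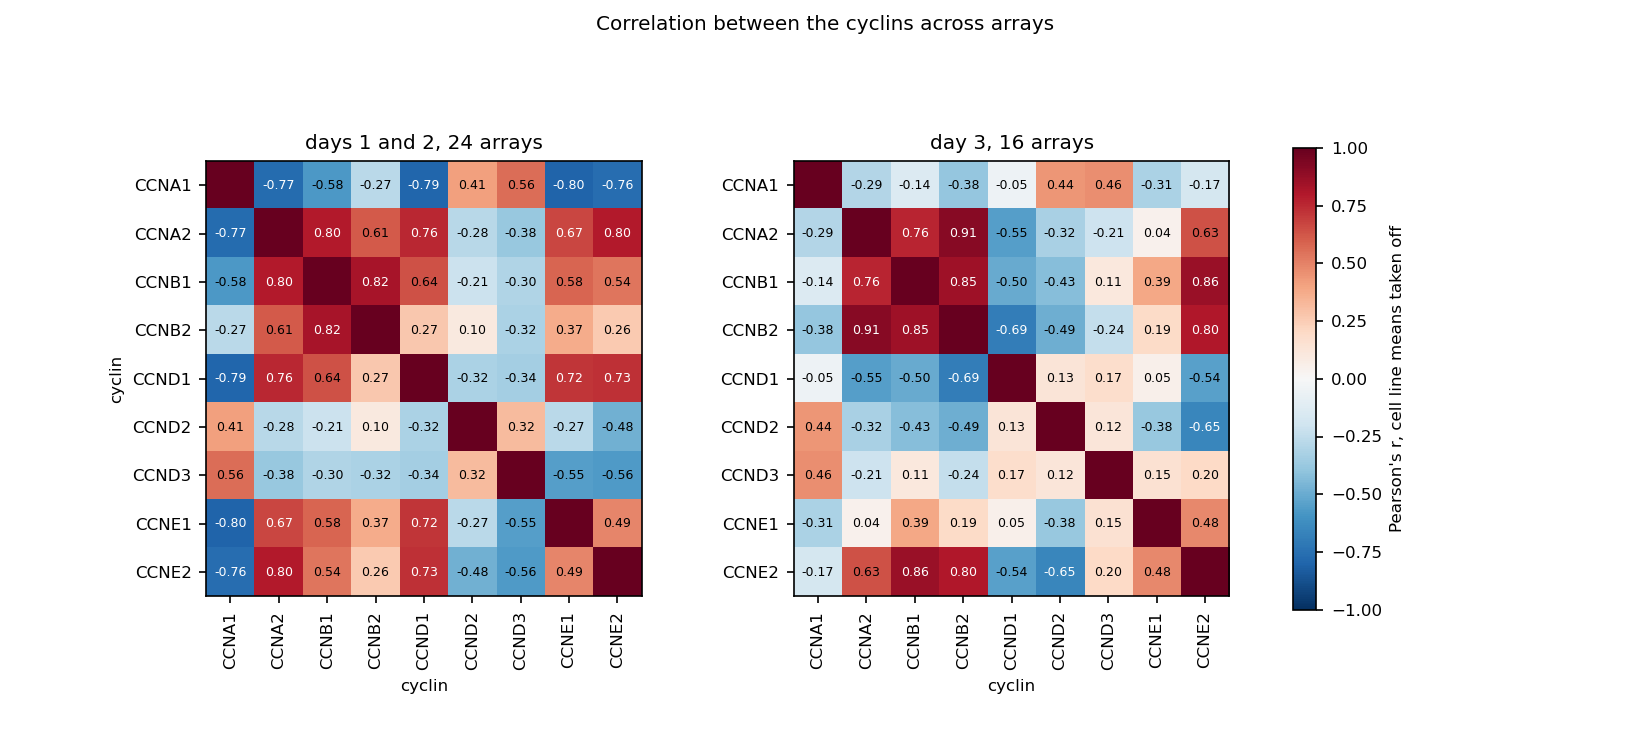
Pearson r between each pair of the 9 cyclins across arrays, line means taken off, in a panel for days 1 and 2 (24 arrays) and a panel for day 3 (16 arrays), from blue (negative) to red (positive). CCNA2, CCNB1 and CCNB2 form a block of r from 0.610 to 0.911 in both sets, and CCNA1 is at -0.772 with CCNA2 in the first set and -0.294 in the second.

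A list of 88 further genes of the cyclin system was drawn up, of which 21 (23.9%) could be tied to a feature by name: 1 of 9 kinase partners, 0 of 8 CDK inhibitors, 6 of 24 transcriptional regulators, 11 of 32 genes of turnover and phosphorylation, and 3 of 15 other cyclins. CDKN1A, the p21 inhibitor, is not among them and was not analysed here. In U2OS cells given CASP8AP2 siRNA 2 rose and 6 fell on day 2 (38.1% of the 21, median log2 difference -0.09, against 24.9% and -0.01 for all features), and on day 3, 5 fell and none rose (23.8%, median -0.17, against 18.9% and 0.02), a share near that of all features. Day 1 had 1 fall (4.76%, against 5.87%). In hTERT-RPE1 cells 0 changed on day 1 in the limma fit (against 0.793% of all features), with 1 at an unadjusted p under 0.05 and 1 under the trended and robust model. There 1 rose on day 2 (4.76%, against 6.4%), and 1 rose and 1 fell on day 3 (9.52%, against 6.15%). NPAT siRNA raised 1 in hTERT-RPE1 cells (4.76%, against 5.04%) and changed 0 in U2OS cells in the limma fit (against 8.13%), with 6 unadjusted and 0 under the other model. HINFP siRNA lowered 2 in hTERT-RPE1 cells (9.52%, against 4.15%) and 1 in U2OS cells (4.76%, against 9.43%).

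E2F2, an activator of S phase genes, fell in both lines. On day 3 it read 5.15 and 5.16 under CASP8AP2 siRNA and 4.85 and 5.29 under HINFP siRNA in hTERT-RPE1 cells, against 5.86 and 5.71 in the controls (-0.63, adjusted p = 0.00838, and -0.72, adjusted p = 0.00826). In U2OS cells it read 5.59 and 5.62 under CASP8AP2 siRNA against 6.16 and 6.06 (-0.51, adjusted p = 0.0123), and on day 2 it was lower by 0.70 on the log2 scale (-0.70, adjusted p = 1.2e-05). Under HINFP siRNA in U2OS cells the value was -0.44 (adjusted p = 0.04). The day 3 CASP8AP2 falls of E2F2 were lost in hTERT-RPE1 cells without control replicate 1 (-0.56) or CASP8AP2 replicate 1 (-0.63) or 2 (-0.64), and in U2OS cells without control replicate 1 (-0.46) or CASP8AP2 replicate 1 (-0.49). The HINFP falls were lost in hTERT-RPE1 cells without HINFP replicate 1 (-0.50), and in U2OS cells without control replicate 1 (-0.39) or 2 (-0.49) or HINFP replicate 2 (-0.34).

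MYBL2, which acts with the complex that drives G2 and M phase genes, was the regulator that rose on day 3 in hTERT-RPE1 cells under CASP8AP2 siRNA, at 9.54 and 9.53 against 9.24 and 9.24 (0.30, adjusted p = 0.0398, lost without any of the 4 arrays, control replicates 1 and 2 and CASP8AP2 replicates 1 and 2, at 0.29 to 0.30). It had also risen on day 2 (0.30, adjusted p = 0.00168), and rose by 0.59 under NPAT siRNA (adjusted p = 0.00117). Both of these MYBL2 calls were lost with only the arrays compared in the fit (adjusted p = 0.0817 and 0.0647). In U2OS cells its day 3 differences were -0.02 under CASP8AP2 siRNA and 0.22 under NPAT siRNA (adjusted p = 0.101), and neither passed. ANAPC4, a subunit of the ligase that marks B cyclins for destruction, fell by 0.54 in U2OS cells on day 3 (-0.54, adjusted p = 0.00634), lost without CASP8AP2 replicate 1 (-0.42). SKP2, a substrate receptor of the SCF ligase, fell by 0.47 (-0.47, adjusted p = 0.0121), lost without control replicate 2 (-0.42) or CASP8AP2 replicate 1 (-0.46).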

How the data were processed

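RNA of 40 cultures was hybridised to Affymetrix Human WT arrays. The authors deposited 1 table of log2 expression values per gene, made with RMA (named in the submitters' processing notes, version not given in the sources used here) and a custom probe grouping by Ensembl gene. RMA pulls low values together, so folds of low genes are understated. Groups come from the labels. The table has no detection calls. Precision rests on how many arrays a group has and on the spread of each gene within the groups of its set.

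Each set (24 arrays of days 1 and 2, 16 of day 3) was fitted with limma 3.58.1 in R 4.3.3, a mean per group and no block, with Benjamini-Hochberg adjustment over the 22069 features. Values were called at an adjusted p under 0.05. The 28 comparisons were 10 of siRNA against control, 5 of lines, 2 of days, 6 of siRNA pairs and 5 of controls. The fit was tested on simulated data. The members and gene lists were chosen with earlier results of these data known. Named were all 9 cyclins, up to 3 called rises and 3 called falls of the listed regulators per line under CASP8AP2 siRNA on day 3, and the 3 features most like CCNA1 and CCNA2. Symbols of 1924 features came from the pairs of names and identifiers in tables given with the paper. Replicate numbers were not used to pair the samples. Same-numbered arrays' deviations correlated at -0.102 to 0.0579 over days 1 and 2 (0 of 12 pairs over 0.1). On day 3 they correlated at -0.0748 to 0.205 (6 of 12 over 0.1). With 2 arrays a group each day 3 value comes up for both numbers, so these 12 are not separate values. Whether the day 3 arrays were paired is not settled by this check. Alternatives changed the arrays in the fit, the scaling, a filter, the variance model, a replicate block or 1 array at a time. Promoters are from RefSeq, GRCh38.p14. CCND1 and CCND2 had no entry among the promoters used here, and the promoter of CCNE2 was left out of the search, so these were not analysed.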

Additional observations from a re-analysis of the deposited data

Results flagged for a closer look

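The tests of a difference between groups picked out 6 results. The CASP8AP2 siRNA effect on CCNE2 was lower in U2OS than in hTERT-RPE1 cells by -0.40 on day 1 and by -0.46 on day 2 on the log2 scale. The effect on CCNA2 differed in the same direction by -0.33 on day 2. Targets were lowered further in U2OS cells, so line and depth of knockdown cannot be told apart in the results between lines. The HINFP siRNA effect on CCNA1 was higher in U2OS than in hTERT-RPE1 cells by 1.10 on day 3, a difference whose call was lost with only its arrays in the fit, after either rescaling and on leaving out any of 7 of its 8 arrays. Within U2OS cells the CASP8AP2 siRNA effect was lower on day 2 than on day 1 by -0.39 for CCNA2 and by -0.30 for CCNE1. The CCNA2 change was lost under the replicate block (adjusted p = 0.0635). The CCNE1 change was lost with all 40 arrays, after cyclic loess and under the block (adjusted p = 0.108, 0.106 and 0.124). No group has 4 or more arrays, so single arrays standing apart were not sought.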

How the results depend on the processing

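Of 56 called values of single cyclins, 26 were called under every alternative. These include the day 2 falls of CCNA2, CCNB1, CCNB2 and CCNE2 and rise of CCND3 in U2OS cells. The direction changed in 84 of 3284 recomputed values, none over 0.217 in size as reported. The CCNA1 difference between lines on day 2 under CASP8AP2 siRNA (-0.05) ran from -0.20 to 0.11 as each array was left out, among them 0.08, 0.07, 0.04 and 0.11 on the other side of 0, and the CCNB1 difference of day 1 controls was -0.0013 after median centring. Causes were not tested.

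The number of the 8 cyclins called moved as follows. With only the arrays compared, CASP8AP2 siRNA gave 0 on days 2 and 3 in hTERT-RPE1 cells and 1 on day 1 in U2OS cells. HINFP siRNA gave 0 in each line and NPAT siRNA 2 in U2OS cells, the line differences of days 1 and 2 gave 0 and 1, NPAT against HINFP siRNA in hTERT-RPE1 cells and CASP8AP2 against NPAT siRNA in U2OS cells gave 0, and the hTERT-RPE1 control days gave 1. With all 40 arrays in 1 fit, CASP8AP2 siRNA on day 3 in U2OS cells gave 6, NPAT siRNA 3 in hTERT-RPE1 and 2 in U2OS cells, and HINFP siRNA 4 in U2OS cells. The line differences gave 0, 1 and 4 on days 1, 2 and 3 for CASP8AP2 siRNA, 3 for NPAT and 2 for HINFP siRNA, and the day difference in U2OS cells gave 1. The siRNA pairs gave 3 (CASP8AP2 and NPAT), 1 (CASP8AP2 and HINFP) and 5 (NPAT and HINFP) in hTERT-RPE1 cells, and 2 for CASP8AP2 and NPAT and 2 for NPAT and HINFP in U2OS cells. Median centring gave 0 for HINFP siRNA in hTERT-RPE1 cells, 2 each for NPAT and HINFP siRNA in U2OS cells, 1 and 2 for the CASP8AP2 line differences of days 2 and 3, 1 for that of NPAT siRNA, and 1 for NPAT against HINFP siRNA in hTERT-RPE1 cells. Cyclic loess gave 4 for CASP8AP2 siRNA on day 3 and 2 for HINFP siRNA in U2OS cells, 1 and 2 for the CASP8AP2 line differences of days 2 and 3, 2 for that of HINFP siRNA, and 1 for the day difference in U2OS cells. The trended and robust model gave 1 for CASP8AP2 siRNA on day 1 in hTERT-RPE1 cells, 2 and 4 for NPAT and HINFP siRNA in U2OS cells, 3, 2 and 2 for the day 3 line differences of CASP8AP2, NPAT and HINFP siRNA, and 4 for NPAT against HINFP siRNA in hTERT-RPE1 cells. The filter on low values gave the same counts but 3 for HINFP siRNA in U2OS cells, and 5 for the hTERT-RPE1 control days.

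The replicate block, run as an alternative, gave 0 for HINFP siRNA in hTERT-RPE1 cells. For the CASP8AP2 line differences of days 1 and 2 it gave 0 and 1. It gave 0 for the day difference in U2OS cells and 0 for CASP8AP2 against NPAT siRNA in U2OS cells. Under it the HINFP line difference of CCNA1 had an adjusted p of 0.0694, the HINFP fall of CCNE1 in hTERT-RPE1 cells 0.0634, the CASP8AP2 rise of MYBL2 there on day 3 0.0586 and the HINFP fall of E2F2 in U2OS cells 0.0548. Leaving out each array in turn gave 0 to 1 for CASP8AP2 siRNA on day 3 and for HINFP siRNA in hTERT-RPE1 cells, 0 to 3 for CASP8AP2 siRNA on day 3 in U2OS cells and 0 to 0 for NPAT and HINFP siRNA there. The CASP8AP2 line differences ran from 0 to 1, 1 to 2 and 0 to 2 on days 1, 2 and 3, those of NPAT and HINFP siRNA from 0 to 1, the U2OS day difference from 1 to 2, and the NPAT and HINFP pair in hTERT-RPE1 cells and the CASP8AP2 and NPAT pair in U2OS cells from 0 to 1.

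For the 21 regulators, only the arrays compared gave 0 for CASP8AP2 siRNA on day 2 and 1 on day 3 in hTERT-RPE1 cells, 0 for NPAT and HINFP siRNA there, and 0 on day 1, 3 on day 3 and 0 for HINFP siRNA in U2OS cells. All 40 arrays gave 2 for NPAT siRNA in hTERT-RPE1 cells, and 0 on day 1, 8 on day 3, 3 for NPAT and 6 for HINFP siRNA in U2OS cells. Median centring gave 2 on day 2 in hTERT-RPE1 and 2 on day 1 in U2OS cells, and loess 2 on day 1 and 1 for NPAT siRNA in U2OS cells. The filter gave 1 on day 1 in hTERT-RPE1 cells, and 3 on day 1, 8 on day 3 and 2 for HINFP siRNA in U2OS cells. The trended model gave 1 on day 1 in hTERT-RPE1 cells, and 2 on day 1 and 0 for HINFP siRNA in U2OS cells. The block gave 1 on day 3 in hTERT-RPE1 cells, and 0 on day 1 and for HINFP siRNA in U2OS cells. Leaving out an array gave 1 to 2 on day 2, 0 to 2 on day 3 and 0 to 2 for HINFP siRNA in hTERT-RPE1 cells, and 0 to 2, 4 to 7 and 0 to 4 on days 1, 2 and 3, 0 to 1 for NPAT and 0 to 1 for HINFP siRNA in U2OS cells.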
